A study of Mus musculus with 18 samples.

Results

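Mouse pluripotent stem cell cultures assigned to the naive side were compared with primed cultures by messenger RNA sequencing. The 15 samples compared, of 18 in the series, were chosen by their labels: the 9 naive-side samples were ESCs, ASCs and ESC-ASCs, the 6 primed samples were AFSCs and EpiSCs, and each group had 3 samples. All were labelled wild type and strain 129S2/SvPasCrl. The ESCs, labelled naive, were kept in 2iL, a medium with leukemia inhibitory factor (LIF) and inhibitors of MEK and GSK3. The AFSCs were primed cells kept in Activin A and FGF2, and the study's methods derive them from blastocysts in defined medium. The ASCs, called advanced pluripotent stem cells, were derived from AFSCs in ABCL medium, which holds Activin A, BMP4, the GSK3 inhibitor CHIR99021 and LIF. The ESC-ASCs were ESCs converted to ASCs in that medium. EpiSCs are epiblast stem cells. The EpiLCs, epiblast-like cells, make up the other 3 samples; they were left out of the comparison and are used only to read the chosen genes in samples that played no part in the choice. The study's methods describe reporter lines on mixed backgrounds, so the strain label may not hold for every line, and each group may be 1 line. Culture medium, line and group cannot be told apart here.

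Naive pluripotency is the state of the epiblast of the blastocyst before implantation, and primed pluripotency that of the epiblast after it. Both keep Pou5f1, but naive cells rely on LIF acting through STAT3 and on a set of transcription factors that includes Esrrb, Tfcp2l1, Klf4 and Tbx3. Primed cells rely on FGF and Activin or Nodal signaling, express Fgf5, Otx2 and Zic2, and stand close to primitive streak formation. In female cells both X chromosomes are active in the naive state, and 1 of them is silenced, with Xist RNA coating it, in the primed state.

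The 15 libraries held 4961934 to 18071600 counts. The ESC-ASC libraries were the deepest, and without them the largest total was 9742624. Mitochondrial genes took 14.4% of the counts of AFSC replicate 1 and 8.08% of those of ESC replicate 1, against 1.43% to 4.59% in the other 13 libraries, and the first replicates of AFSCs, ASCs and ESCs stood apart from the other 2 of their group. Transcripts of the Y-linked genes Ddx3y, Eif2s3y and Uty were present in ESC-ASCs at 64.3 ± 1.77, 242 ± 3.27 and 27.0 ± 1.77 normalized read counts per kb (mean ± SD, n = 3), and no other group of the 5 had a mean above 0.646. The ESC-ASC libraries therefore carried Y-linked RNA that the ESC libraries did not. The labels name no lines, and a difference between ESCs and ESC-ASCs cannot be told apart from a difference between lines. Levels below are in that unit, the count divided by the library's size factor and by the gene's exonic length in kb.

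The sides differed at most genes tested. Of 16724 genes with enough counts, 6372 (38.1%) were higher on the naive side and 5971 (35.7%) were higher on the primed side when the mean of the 3 naive-side groups was set against the mean of the 2 primed groups (edgeR quasi-likelihood test, Benjamini-Hochberg adjusted p below 0.05). Far fewer genes separated every naive-side group from every primed group. In all 6 pairs of a naive-side and a primed group, 1422 genes (8.50%) were more than 2-fold higher on the naive side and 903 (5.40%) were more than 2-fold higher on the primed side, each at an adjusted p below 0.05. Those 2325 genes are called side-consistent from here on. Without the first libraries of AFSCs, ASCs and ESCs the counts were 1356 and 858, of which 1284 and 796 were among those found with all libraries.

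**Figure D1:**
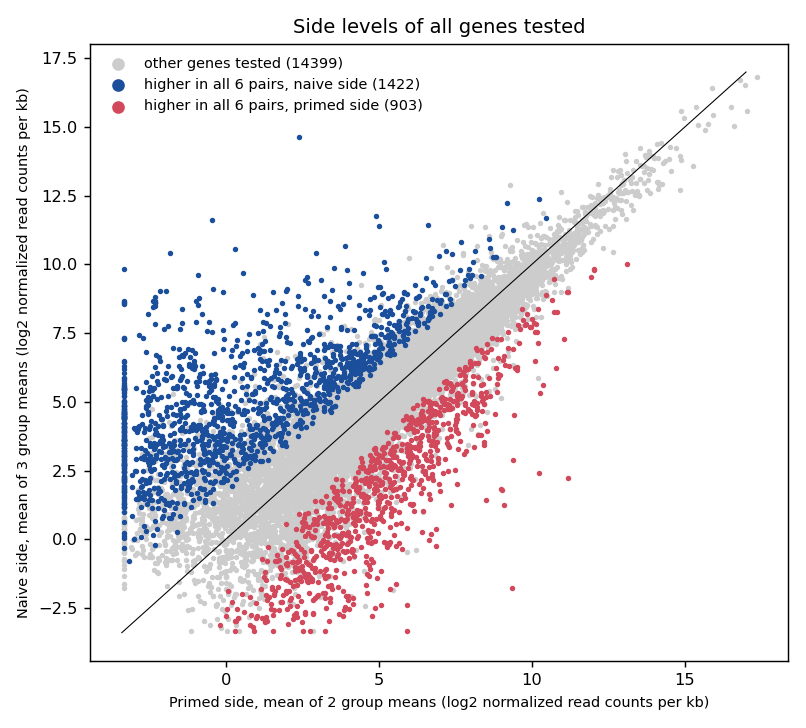
Level of each of the 16724 genes tested on the primed side (x axis) and the naive side (y axis), as the mean of the group means in log2 normalized read counts per kb plus 0.1. Blue points are the 1422 genes higher in all 6 pairs on the naive side, red points the 903 higher on the primed side, grey points the other genes, and the line marks equal levels; the blue column at the left holds genes with no counts in primed cells.

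The naive side changed by larger steps. The median difference between the sides was 4.17 on the log2 scale among its 1422 genes and 3.20 among the 903 primed genes. In 574 of the naive-side genes (40.37%) all 6 differences were above 8-fold, against 146 of the primed genes (16.17%). Some genes were silent on the lower side: 178 of the naive-side genes had no count in any of the 6 primed libraries, and 7 of the primed genes had none in the 9 naive-side libraries. Those 2 numbers are not like for like, since the naive side holds more libraries and the deepest ones. For genes without counts on 1 side, the fitted log2 size depends on the prior count. The median level on the lower side was 1.41 for the naive-side genes and 4.17 for the primed genes, with 39.3 and 35.0 on the higher side. The last naive-side gene inside the 2-fold limit was Tyk2, with a smallest log2 difference of 1.001, and Tacc1 at 0.9997 fell outside it. On the primed side Rimkla stood just inside and Pde5a just outside, at -0.9999.

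Among the genes of the naive side, those with the largest weakest difference were Dppa5a, Rps4l, Zfp42, Esrrb, Tcl1, Aqp3, Ooep, Trim25, Rpl10l and Morc1. That choice favours genes whose sides do not overlap. The separation and p-values of the leading genes of either side therefore describe them and are not further support. Dppa5a, which encodes an RNA-binding KH-domain protein of pluripotent cells, was at 24200, 24100 and 24100 in the 3 ESC libraries, 20200, 29000 and 24600 in ASCs, and 29100, 24200 and 28200 in ESC-ASCs. It was at 21.8, 39.3 and 13.4 in AFSCs and at 0, 1.42 and 1.54 in EpiSCs. Every naive-side library thus lay far above every primed one, and the 3 naive-side groups differed little (log2 difference between the sides 12.13 ± 0.258 (SE), edgeR adjusted p = 8.82e-16).

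Zfp42, the Rex1 gene long used as a naive marker, stood at 1650 to 1960 in ESCs, 1280 to 1670 in ASCs and 866 to 932 in ESC-ASCs. AFSC libraries held 2, 1 and 0 counts of it and EpiSC libraries none, so that no primed library came near a naive-side one. Esrrb, an orphan nuclear receptor of the naive network, had group means of 735 ± 120, 730 ± 92.0 and 1040 ± 57.5 in ESCs, ASCs and ESC-ASCs (SD, n = 3). Its primed means were 2.03 ± 1.18 in AFSCs and 0.944 ± 0.360 in EpiSCs, with an adjusted p of 3.27e-15 (edgeR).

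Tcl1, an AKT coactivator, Aqp3, a water and glycerol channel, and Ooep, a gene of the oocyte's subcortical maternal complex, had no count in any of the 6 primed libraries. Tcl1 ranged from 311 to 496 on the naive side, Aqp3 from 293 to 640 and Ooep from 230 to 584, so each was at least 507-fold, 497-fold and 498-fold higher, in that order, in the weakest of the 6 pairs (floor of 3 counts over the primed group). Rpl10l, an autosomal retrocopy of the ribosomal protein gene Rpl10 used in male germ cells, was also without a count in primed cells and was at 1780 ± 327 in ESCs, 840 ± 215 in ASCs and 508 ± 42.4 in ESC-ASCs. Rps4l, another ribosomal protein paralog, ranged from 1600 to 6310 on the naive side, with 3 counts in all AFSC libraries together and 1 in EpiSCs. Both paralogs resemble their parent genes closely, and reads that matched several places were counted, so the split between the copies is uncertain.

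Trim25, a ubiquitin ligase, lay between 126 and 235 on the naive side and had 2 counts in AFSCs and none in EpiSCs. Morc1, a germ cell ATPase that acts on transposon silencing, lay between 270 and 562 against 0 to 0.860 in primed cells. By this choice, none of the 10 genes had a primed library within its naive-side range.

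**Figure D2:**
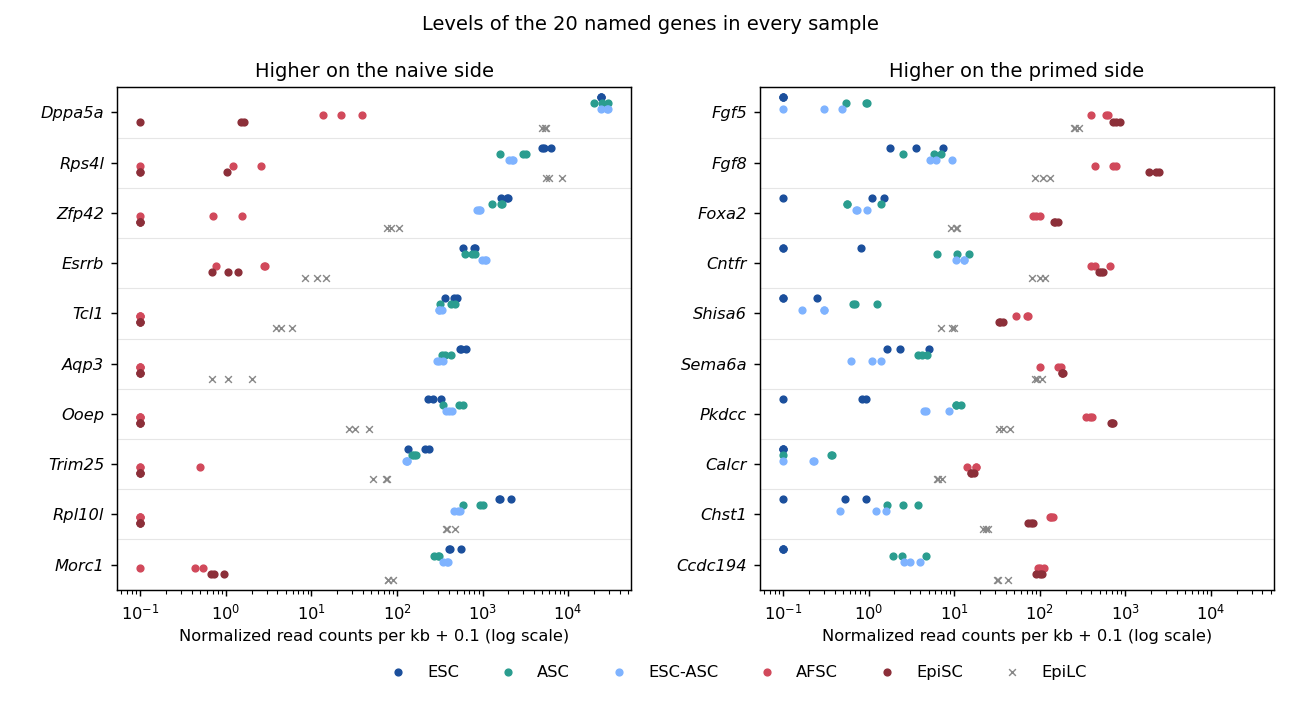
Normalized read counts per kb plus 0.1, on a log scale, of the 10 leading genes of each direction in all 18 samples; each point is 1 sample, coloured by group, and crosses are the EpiLC samples that played no part in the choice. The genes were chosen for a large weakest difference, so the 9 naive-side samples and the 6 primed samples form separate clusters in each. Fgf5, for example, is at 0 to 0.863 against 399 to 864. The EpiLC samples stand nearest the naive side for Rps4l and nearest the primed side for Aqp3.

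On the primed side the leading genes, chosen in the same way, were Fgf5, Fgf8, Foxa2, Cntfr, Shisa6, Sema6a, Pkdcc, Calcr, Chst1 and Ccdc194. Fgf5, the growth factor by which postimplantation epiblast is recognised, was at 399, 621 and 586 in AFSCs and 708, 864 and 779 in EpiSCs. It had no count in ESCs, 0.439 to 0.863 in ASCs and 0 to 0.391 in ESC-ASCs, so no naive-side library came near the primed ones (edgeR adjusted p = 4.29e-15). Fgf8, an FGF of the primitive streak, was at 776, 442 and 720 in AFSCs and 2470, 1880 and 2280 in EpiSCs. On the naive side it ran from 1.65 to 9.31 with a median of 5.69. The log2 difference was -7.87 ± 0.194 (SE).

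Foxa2, a forkhead factor of endoderm, node and anterior streak, was at 90.5 ± 8.48 in AFSCs and 153 ± 8.57 in EpiSCs (SD, n = 3), and no naive-side library exceeded 1.41. Cntfr, the receptor subunit that makes cells responsive to ciliary neurotrophic factor, was at 397 to 656 in primed cells. It was higher in ASCs (10.5 ± 4.18) and ESC-ASCs (12.1 ± 1.40) than in ESCs, where 1 count was found in 3 libraries. Pkdcc, a secreted tyrosine kinase, was also lowest in ESCs, with 10.9 ± 0.875 in ASCs and 5.86 ± 2.42 in ESC-ASCs against 0.516 ± 0.450 in ESCs and 346 to 711 in primed cells.

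The other 5 genes also had separate ranges on the 2 sides. Shisa6, whose protein binds AMPA receptors in neurons, was at 33.0 to 72.3 in primed cells and at most 1.16 on the naive side. Sema6a, a semaphorin, was at 100 to 189 against 0.515 to 4.93, Chst1, a keratan sulfate sulfotransferase, at 73.4 to 143 against 0 to 3.68, and the little-known Ccdc194 at 89.1 to 111 against 0 to 4.56. Calcr, the calcitonin receptor, was low even where present, at 13.9 to 18 against 0 to 0.276. AFSCs exceeded EpiSCs in mean level for Shisa6 (65.2 against 34.6) and Chst1 (136 against 78.9), and the reverse held for Fgf8 and Foxa2.

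The list counts below stand beside these shares over all genes tested. Side-consistent were 8.50% on the naive side and 5.40% on the primed side, and 38.1% and 35.7% passed the side contrast. Of the 15 naive pluripotency transcription factors listed, 13 were side-consistent, all higher on the naive side. The median log2 difference of that list was 7.51 against 0.0461 over all genes tested. Tbx3, a T-box factor, was at 126 to 411 on the naive side and 0 to 1.44 in primed cells. Prdm14, which restrains de novo methylation genes in ESCs, was at 164 ± 17.6 in ESCs, 127 ± 14.1 in ASCs and 35.0 ± 1.64 in ESC-ASCs, with no count in AFSCs and 0.409 ± 0.0899 in EpiSCs. Klf2 and Klf4, Kruppel-like factors downstream of MEK inhibition and STAT3, had weakest ratios of group means of 7.18 and 32.9. ESC-ASCs had the lowest naive-side mean for Tbx3, Prdm14, Klf2 and Klf4.

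Nanog and Gbx2 were the exceptions. Nanog rose on the naive side taken as a whole (log2 difference 1.35 ± 0.106 SE, edgeR adjusted p = 5.24e-09), but its levels overlapped, at 1590 to 4970 in naive-side libraries and 669 to 1620 in primed ones. EpiSCs, at 1480 ± 174, stood close to ESC-ASCs at 1690 ± 101, and AFSCs were lower at 738 ± 69.3. Gbx2 passed the side contrast too, yet ESC-ASCs were only 1.49 times as high as AFSCs.

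Of the 10 core genes shared by naive and primed cells, 3 were higher on the naive side in the side contrast, 5 were higher on the primed side and 2 did not pass. Over all genes tested the shares were 38.1% on the naive side and 35.7% on the primed side. Sox2 and Dppa4 were side-consistent, both higher on the naive side, and the median log2 difference of the list was -0.221. Pou5f1, the central pluripotency factor, was at 3490 to 6870 on the naive side and 6790 to 8380 on the primed side, and fell by 0.57 on the log2 scale on the naive side (edgeR adjusted p = 0.000797). Sall4, at 151 to 492 against 220 to 424, did not pass the test (adjusted p = 0.514). Sox2 was at 2330 ± 316 in ESCs, 1770 ± 319 in ASCs and 1450 ± 121 in ESC-ASCs against 564 ± 140 in AFSCs and 76.1 ± 9.12 in EpiSCs. Utf1, a chromatin-bound factor, split the primed side, with 2020 ± 378 in AFSCs and 171 ± 11.2 in EpiSCs. All 5 groups thus held the pluripotency marker Pou5f1 at high levels, as their labels state.

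The formative and primed list went the other way. Of its 15 genes 9 were side-consistent (Otx2, Zic2, Zic5, Pou3f1, Fgf5, Sox4, Sall2, Dnmt3b and Lin28b), all higher in primed cells, and 14 of 15 passed the side contrast in that direction. Otx2, a homeobox factor of the postimplantation epiblast, was at 22.4 to 35.2 in the 9 naive-side libraries, 68.3 to 91.0 in AFSCs and 336 to 388 in EpiSCs. Pou3f1, the Oct6 gene, was highest in AFSCs (240 ± 37.6) and only 37.7 ± 8.75 in EpiSCs, against 2.45 to 13.9 in naive-side means. Sox3 was far above the others in EpiSCs (1050 ± 65.0), but AFSCs at 94.5 ± 9.76 overlapped ASCs at 77.6 ± 23.1, so it was not side-consistent.

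Of 17 primitive streak and mesoderm genes listed 13 were tested, and in the side contrast 9 were higher in primed cells, 2 were higher on the naive side and 2 did not pass. T, Eomes, Mixl1, Lhx1, Fgf8 and Wnt3 were side-consistent and higher in primed cells. T, the brachyury gene, was at 14.6 to 28.0 on the naive side, 85.7 ± 38.6 in AFSCs and 417 ± 14.3 in EpiSCs. Eomes, a T-box factor that directs mesendoderm, was at 2.37 ± 0.417 in ESCs and higher in ASCs (21.6 ± 3.83) and ESC-ASCs (19.7 ± 1.24), against 159 ± 33.8 in AFSCs and 472 ± 27.6 in EpiSCs. Cdx1, a caudal homeobox gene, was the 1 member side-consistent on the naive side. It was at 137 ± 3.8, 370 ± 111 and 45.0 ± 8.50 in ESCs, ASCs and ESC-ASCs, with no count in AFSCs and 15.9 ± 2.19 in EpiSCs.

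In the LIF-STAT3 list 7 of 12 were side-consistent and higher on the naive side: the receptor subunits Lifr and Il6st, the transducer Stat3, and Socs3, Pim1, Pim3 and Bcl3, most of them known STAT3 targets. None was side-consistent in primed cells, and the list's median log2 difference was 2.01. Stat3 was at 225 ± 11.8 in ESC-ASCs, 99.5 ± 30.4 in ESCs and 80.5 ± 8.03 in ASCs, against 15.5 ± 2.68 in AFSCs and 9.50 ± 1.49 in EpiSCs. Socs3, the feedback inhibitor of the receptor, was at 365 to 393 in ESCs, 191 to 273 in ASCs and 954 to 1050 in ESC-ASCs, against 29.6 to 38.7 in AFSCs and 21.1 to 28.1 in EpiSCs. The kinases Jak1 and Jak2 and the phosphatase Ptpn11 were not side-consistent. LIF was in the medium of all 3 naive-side groups and is not named for the primed ones.

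Of 19 FGF-ERK genes, Fgf5, Fgf8, Dusp6 and Etv1 were side-consistent in primed cells, where 5.40% of all genes tested were. Fgf4, the autocrine FGF of naive cells, was the 1 member side-consistent on the naive side, where 8.50% of all genes tested were. Dusp6, an ERK phosphatase induced by the pathway, was at 253 to 447 in primed cells, but ASCs (102 ± 12.9) and ESC-ASCs (59.2 ± 4.12) were above ESCs (18.8 ± 5.06). Egr1, an immediate early ERK target, was not side-consistent although the side contrast was large (log2 difference -3.86). ASCs, at 575 ± 38.5, lay with AFSCs (684 ± 43.8) and EpiSCs (375 ± 43.0), whereas ESC-ASCs (10.7 ± 0.896) lay with ESCs (6.84 ± 1.04). The 2 groups grown in ABCL medium therefore stood on opposite sides for this gene.

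The 2 Lefty genes, neighbouring inhibitors of Nodal, were divided between the sides. Lefty1 was at 1080 to 4730 in primed cells and 93.5 to 272 on the naive side, while Lefty2 was at 30.4 to 73.0 and 255 to 1090 respectively. Nodal itself had lower levels on the naive side (76.3 to 338 against 364 to 868) but missed the 2-fold limit in some pairs. Among 15 Wnt genes the ligands Wnt3 and Wnt8a were side-consistent, both higher in primed cells, and the target Axin2 was not. None of 11 BMP genes tested was side-consistent, and in the side contrast 6 were higher on the naive side and 3 on the primed side, where 38.1% and 35.7% of all genes tested were.

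**Figure D3:**
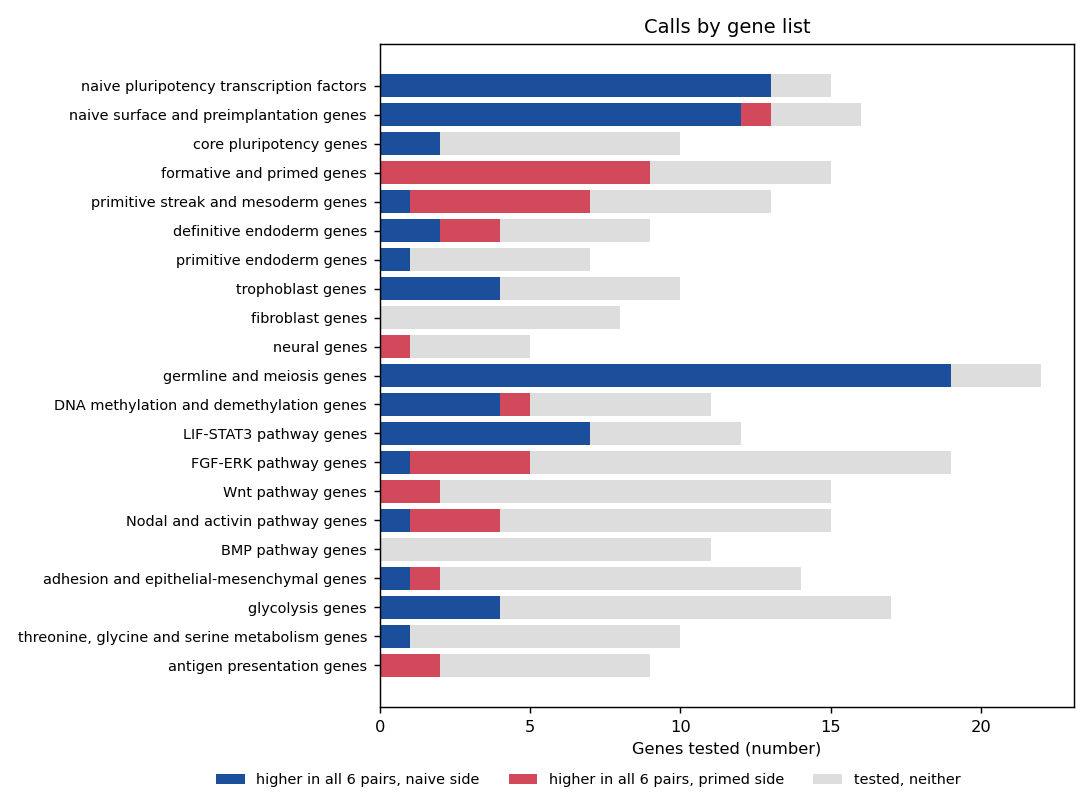
Number of genes tested in each of 21 gene lists, split into those higher in all 6 pairs on the naive side (blue), higher on the primed side (red) and neither (grey). Blue fills 19 of 22 germline and meiosis genes and 13 of 15 naive transcription factors, red 9 of 15 formative and primed genes, and the BMP and fibroblast lists hold neither colour.

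Germline and meiosis genes formed the list with the most calls. All 22 members passed the filter, all 22 were higher on the naive side in the side contrast, and 19 were side-consistent, with a median log2 difference of 6.95. Dazl, an RNA-binding protein of germ cells, was at 360 to 576 in ESCs, 230 to 275 in ASCs and 44.7 to 48.8 in ESC-ASCs, with no count in AFSCs and 1 in EpiSCs. Not all members followed that order. Stra8, the meiotic entry gene, was at 86.5 ± 15.3 in ASCs, 23 ± 2.26 in ESC-ASCs and 5.27 ± 2.23 in ESCs. Mael and Ddx4, of the piRNA pathway and germ cell RNA granules, were highest in ESC-ASCs, at 91.5 ± 5.09 and 69.7 ± 6.93, and lowest in ESCs, at 4.15 ± 0.815 and 6.58 ± 2.11. Tex101 was side-consistent in the test, but its sample ranges overlapped (1.35 to 9.51 against 0 to 1.58). Tdrd1, Tdrd9 and Sycp2 were not side-consistent and had means no higher than 2.17 in any of the 5 groups.

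Genes that write, remove and read DNA methylation were split. Dnmt3b, a de novo methyltransferase, was at 136 to 274 in the naive-side libraries and 876 to 1280 in primed ones (log2 difference -2.54 ± 0.0920 SE). Dnmt3l, its catalytically inactive cofactor, went the other way. It was at 103 to 180 in ESCs, 603 to 963 in ASCs and 1020 to 1070 in ESC-ASCs, against 2.32 to 2.70 in AFSCs and 0 to 0.439 in EpiSCs. Tet1 and Tet2, which oxidise methylcytosine, and Zfp57, which keeps imprints methylated, were side-consistent and higher on the naive side, with weakest ratios of group means of 3.72, 7.0 and 2.92. Dnmt3a was not side-consistent, since ASCs (38.2 ± 1.01) and ESC-ASCs (46.6 ± 1.45) lay within the primed range of 26.0 to 65.2 and ESCs at 7.13 ± 1.05 below it.

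Among metabolic genes, Tdh, the threonine dehydrogenase of naive mouse cells, was at 1150 to 2540 on the naive side and 7.97 to 25.6 on the primed side. It was the only side-consistent member of the 10 threonine, glycine and serine genes. Of 17 glycolysis genes 16 passed the side contrast, all higher on the naive side, and Slc2a3, Hk1, Hk2 and Pfkp were side-consistent. Pfkp was at 183 ± 11.2 in ESCs, 706 ± 17.6 in ASCs and 876 ± 19.3 in ESC-ASCs, against 42.4 ± 11.1 in AFSCs and 27.4 ± 3.06 in EpiSCs. All 9 antigen presentation genes tested passed the side contrast, higher on the primed side, and B2m and Psmb8 were side-consistent. Psmb8, an immunoproteasome subunit, was at 98.7 ± 13.0 in AFSCs and 26.2 ± 5.46 in EpiSCs and no higher than 4.17 in a naive-side library.

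Of the 14 adhesion genes tested, Fn1, the fibronectin gene, was side-consistent on the naive side (642 to 1460 against 20 to 87.7) and Zeb2 on the primed side, so 1 of 14 in each direction beside 8.50% and 5.40% of all genes tested. Cdh1 was not, being at 706 ± 201 in AFSCs and 174 ± 3.66 in EpiSCs. Preimplantation and surface genes gave 12 side-consistent members of 16 on the naive side. Among them Dppa3, the maternal Stella gene, was at 2440 ± 996 in ESCs and only 252 ± 55.9 in ASCs and 275 ± 54.4 in ESC-ASCs. Eras, an X-linked RAS gene, was the 1 member higher in primed cells.

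Markers of other cell types were measured beside these results. The summed level of 12 trophoblast genes was 1960 to 2580 in AFSCs, 746 to 907 in ASCs, 517 to 579 in ESC-ASCs, 384 to 464 in EpiSCs and 288 to 304 in ESCs. Krt8, a simple keratin, was the largest part of the AFSC value, at 1290 ± 129, while Elf5, a defining trophoblast stem cell factor, was no higher than 0.203 in any of the 5 group means. In this list Gata2, Tead4, Esx1 and Tfap2a were side-consistent on the naive side. The 10 definitive endoderm genes summed to 405 to 428 in EpiSCs, 112 to 137 in AFSCs and 51.9 to 73.8 on the naive side, with Foxa2 and Cer1 side-consistent in primed cells and Gata4 and Hnf4a, at low levels, on the naive side. The 11 primitive endoderm genes summed to 753 to 1040 in AFSCs, 293 to 318 in EpiSCs and 353 to 864 on the naive side, with Afp and Ttr near 0 and Lama1 side-consistent on the naive side. Fibroblast genes summed to 39.3 to 118 in primed cells and 63.6 to 211 on the naive side, with none of 8 tested side-consistent. Neural genes summed to 300 to 385 in primed cells and 95.5 to 646 on the naive side, where Tubb3 was 580 in ESCs, and Nes was the 1 side-consistent gene, higher in primed cells. The part of such cells in the results was not tested, and in bulk RNA fewer expressing cells and less RNA per cell cannot be told apart.

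X-linked genes were called more often on the naive side than other genes: 100 of 633 tested (15.8%) were side-consistent there, against 8.24% of autosomal genes, and 39 (6.16%) on the primed side, against 5.39%. Some of the 100 lay in runs of neighbouring genes of the same family, such as the Xlr genes, where copies can share reads. X-linked levels were raised in 1 of the 3 naive-side groups. The median log2 difference of X-linked genes was 0.887 for ASCs against AFSCs and 0.873 for ASCs against EpiSCs, but 0.0311 and -0.0467 for ESCs and 0.111 and 0.0114 for ESC-ASCs. Autosomal medians lay between 0.0315 and 0.0944 in the 6 pairs. Xist was side-consistent and higher in primed cells, at 142 to 291 in AFSCs and 132 to 144 in EpiSCs. It was at 4.29 to 10.8 in ESCs, 16.0 to 33.8 in ASCs and 0.870 to 1.31 in ESC-ASCs. The labels give no sex for these libraries, while the study describes female ASCs and AFSCs in other assays. Only the ESC-ASCs held Y-linked RNA above trace levels, as described above. In that group the low Xist level cannot be told apart from a difference in sex. The part of X chromosome number in these values was not tested. With autosomal genes only, 1322 naive-side and 864 primed genes were side-consistent.

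Chromosomes 11 and 12 also stood apart, each in a single primed group. Over 7796 genes with at least 50 counts in each library, the median log2 level of chromosome 12 was 0.413 to 0.426 above that of the other autosomes in the 3 EpiSC libraries and between -0.112 and 0.0514 in the libraries of the other 4 groups. For chromosome 11 the shift was 0.227 to 0.329 in AFSCs and between -0.0801 and -0.0074 elsewhere. The X chromosome was 0.516 to 0.657 above the autosomes in ASCs. No other autosome left the range of -0.170 to 0.153 in any library. The shares called higher in primed cells were 7.67% of 587 genes on chromosome 12 and 3.89% of 1364 on chromosome 11, against 5.40% of all genes tested. The part of these shifts in the calls was not tested.

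**Figure D4:**
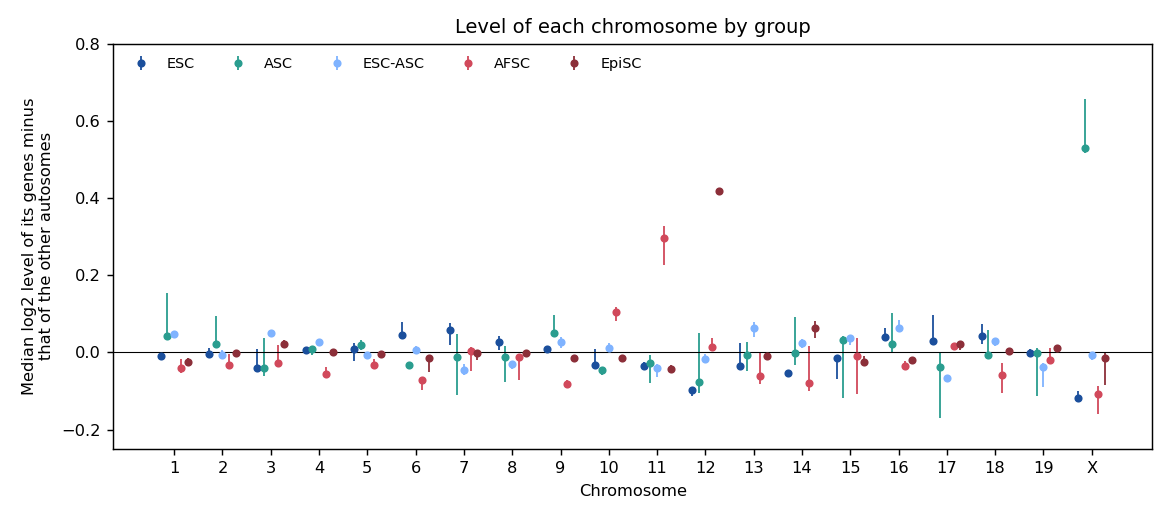
Median log2 level of the genes of each chromosome minus that of the other autosomes, after centring each gene on its median over all libraries; points are the median of the 3 libraries of a group and bars run from the lowest to the highest library. Chromosome 12 is raised in EpiSCs, chromosome 11 in AFSCs and the X chromosome in ASCs, by 0.419, 0.296 and 0.531 in the middle library.

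Some side-consistent genes lay next to each other. There were 17 runs of 5 or more neighbouring tested genes called in the same direction, 14 of them on the naive side. Within the spans of these runs lay 113 of the 2325 side-consistent genes, counting only those of the run's direction. The genes named here were chosen after their values were seen. On chromosome 5 (GRCm38, chr5:97882783-98802047) Antxr2, Prdm8, A730035I17Rik, Fgf5 and Cfap299 were all higher in primed cells, with Prdm8 at 9.08 in AFSCs and 21.6 in EpiSCs and at most 0.518 in a naive-side mean. On chromosome 13 (chr13:93616891-93752831) the run held Bhmt, Bhmt2 and Dmgdh, which act in betaine and dimethylglycine breakdown. Bhmt was at 55.7 in ESCs, 6.96 in ASCs and 1.67 in ESC-ASCs, with no count in primed cells. On chromosome 4, 2 runs between positions 145670685 and 147391004 held zinc finger genes such as Zfp600, at 685, 812 and 291 in ESCs, ASCs and ESC-ASCs and 3.73 and 4.11 in AFSCs and EpiSCs. Those genes are close copies of each other and share reads, as do the protocadherin alpha genes of a primed run, which share exons. On chromosome 14, 84 of 644 genes tested (13.04%) were side-consistent in primed cells, against 5.40% of all genes tested. Of the 84, 52 (61.9%) had provisional Gm names or none, as did 21.9% of the genes tested on that chromosome and 11.3% of all tested.

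What the side-consistent genes share in sequence was read from RefSeq promoters (GRCm38.p6, 250 bases before to 50 after the start), which matched 995 of the naive-side genes, 612 of the primed genes and 11744 of those tested. The promoters of side-consistent genes held fewer CpG dinucleotides than those of all genes tested: the median ratio of observed to expected CpG was 0.566 for the naive side, 0.691 for the primed side and 0.766 for all. A ratio under 0.4 was found in 35.8%, 21.4% and 15.4%. The promoters of 2 leading genes of each side, the first in rank with a single window, are printed with each CpG in capitals. The 2 naive-side windows lie below the median ratio of all genes tested and the 2 primed ones above it.
Zfp42: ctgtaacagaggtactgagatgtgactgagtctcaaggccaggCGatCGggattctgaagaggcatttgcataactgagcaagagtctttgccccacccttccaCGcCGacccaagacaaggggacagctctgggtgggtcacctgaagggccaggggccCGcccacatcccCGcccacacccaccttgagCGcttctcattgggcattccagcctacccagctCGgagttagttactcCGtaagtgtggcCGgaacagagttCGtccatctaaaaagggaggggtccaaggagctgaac
Tcl1: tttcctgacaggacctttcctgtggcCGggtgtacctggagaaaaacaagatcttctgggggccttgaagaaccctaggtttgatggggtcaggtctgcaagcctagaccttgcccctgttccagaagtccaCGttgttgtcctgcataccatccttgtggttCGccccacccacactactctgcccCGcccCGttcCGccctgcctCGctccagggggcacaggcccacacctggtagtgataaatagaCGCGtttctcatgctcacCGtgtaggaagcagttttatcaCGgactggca
Fgf5: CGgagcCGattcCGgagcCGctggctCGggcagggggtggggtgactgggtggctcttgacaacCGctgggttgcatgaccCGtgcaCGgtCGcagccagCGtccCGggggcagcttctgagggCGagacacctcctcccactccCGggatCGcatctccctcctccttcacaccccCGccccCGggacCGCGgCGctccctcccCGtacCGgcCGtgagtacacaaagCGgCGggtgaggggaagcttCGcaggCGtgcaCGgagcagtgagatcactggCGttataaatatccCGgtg
Pkdcc: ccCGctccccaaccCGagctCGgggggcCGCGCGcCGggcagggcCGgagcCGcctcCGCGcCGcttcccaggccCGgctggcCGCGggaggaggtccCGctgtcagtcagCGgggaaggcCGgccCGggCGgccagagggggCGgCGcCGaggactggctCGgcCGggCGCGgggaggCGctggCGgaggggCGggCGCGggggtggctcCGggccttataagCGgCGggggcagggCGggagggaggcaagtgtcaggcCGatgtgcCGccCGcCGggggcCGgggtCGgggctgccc
Zfp42 (chr8:43306960-43307259, minus strand) and Tcl1 (chr12:105222688-105222987, minus strand) have 11 CpGs each, with ratios of 0.441 and 0.462. Fgf5 (chr5:98253934-98254233, plus strand) and Pkdcc (chr17:83215033-83215332, plus strand) have 29 and 42, with ratios of 0.828 and 0.849. Not every primed gene has many: the window of Chst1 has 1 CpG.

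Motifs were searched in the same windows on both strands. CACGTG, the E-box, was in 13.0% of naive-side promoters, 7.35% of primed ones and 11.5% of all. GGGTGTGG, a Kruppel-like factor site, was in 5.83%, 3.43% and 4.61%, and TGTTTAC, a forkhead site, in 4.22%, 2.78% and 3.18%. The longer E-box TCACGTGA, which contains CACGTG, was in 1.31%, 0.817% and 1.99%, and in 0 of the 19 germline list genes with a window, while the shorter CACGTG was in 11 of those 19 genes. TCAAGGTCA, ATTTGCAT, TTCNNNGAA, TAATCC and AGGTGTGA were in 0.402%, 2.11%, 8.04%, 8.24% and 1.21% of naive-side promoters, in 0.163%, 2.29%, 7.19%, 7.68% and 0.980% of primed ones, and in 0.324%, 1.67%, 7.90%, 7.06% and 1.08% of all. These are shares without a test.

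The groups of a side were not alike. Of the 1422 naive-side genes 1089 (76.58%) differed among ESCs, ASCs and ESC-ASCs, near the 74.43% found over all genes tested, and 846 (59.49%) spanned more than 2-fold. The highest group was ESCs for 549, ASCs for 469 and ESC-ASCs for 404. Of the 903 primed genes 412 (45.63%) differed between EpiSCs and AFSCs, against 38.84% of all tested, with EpiSCs higher for 516 and AFSCs for 387. The change from primed to naive side also depended on the pair of cultures. The difference between ASCs and AFSCs, the cells they came from, was unlike that between ESCs and EpiSCs at 6715 of the 16724 genes tested. That count is by the test of the difference itself. In 1058 genes (6.33% of those tested) both differences passed the test with opposite signs.

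EpiLCs, which the choice of genes did not use, were spread between and beyond the sides. In 400 of the 1422 naive-side genes all EpiLC libraries lay within or past the naive-side libraries, and in 312 all lay within or past the primed ones. Both can hold where the ranges of the sides overlap. Neither held in 713, which takes in libraries between the sides and libraries that straddled the edge of a range. The corresponding numbers for the 903 primed genes were 224, 212 and 467. A position of 0 was given to the mean log2 level of the naive-side groups and 1 to that of the primed groups. For the 1422 naive-side genes the median position of EpiLCs was 0.478 (quartiles 0.147 and 0.783), and 688 (48.38%) lay nearer the primed side. For the 903 primed genes it was 0.591 (quartiles 0.352 and 0.837), and 548 (60.69%) lay nearer the primed side. Klf4, at 4.35 ± 0.426, and Socs3, at 8.93 ± 0.5, were at or below the primed level in EpiLCs. Dppa4, at 903 ± 141, and Rps4l, at 5570 to 8460, were above most naive-side libraries. Dnmt3b at 2660 ± 190 and Pou3f1 at 662 ± 106 exceeded every primed library, whereas Eomes (12.5 ± 2.31) and Xist (6.36 ± 1.32) lay within the naive-side range and T (5.68 ± 0.761) below every naive-side library.

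**Figure D5:**
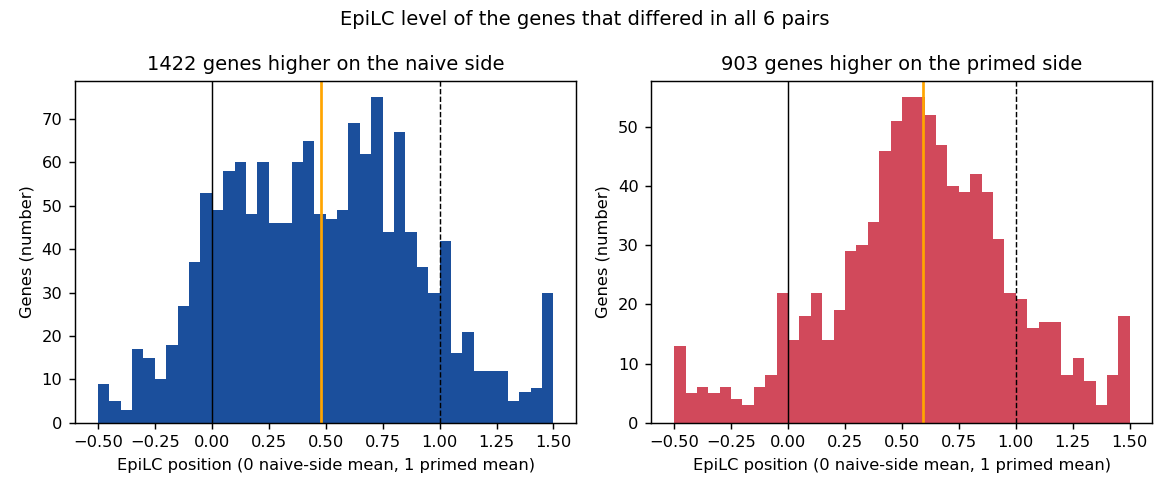
Number of genes by the position of their mean EpiLC level between the naive-side mean (0, solid line) and the primed mean (1, dashed line), for the 1422 naive-side genes and the 903 primed genes; the orange line is the median, at 0.478 and 0.591, and positions beyond the ends of the axis are counted in the outermost bars. Naive-side genes are spread over the whole range, and primed genes peak near the middle.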

How the data were processed

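Poly(A) RNA was sequenced as read pairs from directional libraries. Per the file headers, the authors counted fragments per gene with featureCounts 1.5.0-p1 on Ensembl release 86 exons (GRCm38) and deposited raw counts, 1 file per sample; the paper names TopHat2 as the aligner. Fragments overlapping several genes or aligned to several places were counted, without strand, so copies and overlapping or antisense genes share reads. Of 35773 genes, 35514 had symbols in a GENCODE table of the same build.

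A gene was tested where 3 or more of the 15 samples held 10 counts or more. The fit used edgeR 4.0.16 (TMM, quasi-likelihood, robust) in R 4.3.3, with 5 groups and no block. Levels are counts over DESeq2 1.42.0 size factors per exonic kb, with 0.1 added before logs. Fold changes are naive side minus primed. A fold against a group without counts uses a floor of 3 counts over the group, which covers counting error only. The main test was checked on simulated data, where 96% of changes of 1.5 and 100% of changes of 3 (log2) were recovered among 16724 genes. There, 200 well-counted genes were changed, alike in all groups of a side, and every gene had the same spread. Those rates therefore do not cover genes silent on 1 side, differences within a side or libraries that stand apart. The paper calls the replicates biological, and the labels do not say whether they were separate cultures, so p-values measure the spread between these samples. None of the 18 replicate pairs held identical values.

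The genes named are the 10 in each direction with the largest weakest of 6 differences in log2 CPM (prior count 2), outside Gm and Rik names and with levels above 8 in each group of the higher side, plus members of 22 gene lists. Members and lists were chosen with earlier results of these data known. Alternatives changed the scaling, tool, filter, depth, samples, block and thresholds. A result on 1 gene of these lists is not reported here.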

Additional observations from a re-analysis of the deposited data

Results flagged for a closer look

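For 7 of the 20 leading genes the change from primed to naive side depended on the pair of cultures, tested as the difference between ASCs minus AFSCs and ESCs minus EpiSCs (edgeR, adjusted p below 0.05). Over all genes tested, 6715 of 16724 passed the same test, so the leading genes did not stand out in it. The difference was -4.24 on the log2 scale for Dppa5a, which was almost absent from EpiSCs and low in AFSCs. It was 4.62 for Fgf5, 2.24 for Fgf8, 5.80 for Cntfr, 2.49 for Shisa6, 5.25 for Pkdcc and 5.54 for Ccdc194, all of which fell less in ASCs than in ESCs. ESC libraries held at most 3 counts in all of Fgf5, Cntfr, Shisa6, Pkdcc and Ccdc194, and the fitted size of those 5 differences depends on the prior count.

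In 407 of the 16724 genes tested the 2 comparisons differed by more than 2-fold in opposite directions, and 21 of them were among the 258 list genes tested. Of these, 17 were higher in ASCs than AFSCs and lower in ESCs than EpiSCs. They were the BMP targets Id1 (difference 5.18), Id3 (4.38) and Bambi (2.32), the FGF pathway genes Spry4 (6.15), Fgfr3 (4.99) and Fgfr4 (3.58), and the Wnt genes Wnt5a (6.44) and Dkk1 (4.13). The streak and endoderm genes Evx1 (4.58), Gata6 (5.50), Pdgfra (4.82), Amn (5.06) and Col4a2 (2.70) did the same, as did Thy1 (2.77), Pdgfrb (3.16), H2-K1 (5.04) and Ldha (2.97). The other 4, lower in ASCs than AFSCs and higher in ESCs than EpiSCs, were Col3a1 (-8.44), Col1a2 (-4.22), Dab2 (-3.03) and Foxh1 (-2.55). Several of these genes were at low levels, such as Col3a1, whose largest group mean was 11.2 normalized read counts per kb, in ESCs.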

How the results depend on the processing

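The counts of genes higher on each side moved by less than 1.5 times with DESeq2 size factors, with DESeq2's own test (1389 and 887 side-consistent genes, 1378 and 878 of them shared), with no filter, with EpiLCs in the fit and with ESC-ASC libraries thinned. Requiring 10 counts in every library, which removes genes silent on 1 side, left 3834 genes higher on the naive side and 4073 on the primed side, and 394 and 303 side-consistent genes. It left 4386 genes in which the 2 changes differed, 677 with opposite signs, and 270 and 124 that differed within a side. Without AFSCs the side-consistent counts were 2343 and 1553, and without EpiSCs the primed count was 1429, since fewer pairs had to agree. With side as the only term, so that groups of a side count as error, 3942 genes were higher on the primed side. Without a fold minimum 2201 and 1674 genes were side-consistent. With a log2 fold change beyond 2 and a level above 8 there were 510 and 238, and a test against 2-fold left 557 on the primed side. All 560 values of the 20 leading genes under alternatives that tested them kept their direction and call in the side contrast. The 20 genes were chosen from these same samples for large differences, so that outcome is not further support. None of the 20 held 10 counts in every library, so that filter removed them all and says nothing on them.

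Leaving out 1 library gave 6071 to 6445 and 5636 to 6050 genes in the side contrast, and 1346 to 1429 and 834 to 926 side-consistent genes. The genes in which the 2 changes differed numbered 5924 to 6983, those with opposite signs 910 to 1109, and those that differed within a side 973 to 1083 and 311 to 433.

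Replicate numbers gave no clear pairing: 5 of 15 samples correlated best with their own number. Deviations of same-numbered samples had a mean correlation of 0.0695, against -0.0325 for different numbers. Some same-numbered samples did go together: 12 of 30 such pairs were above 0.1, the highest at 0.515, against 15 of 60 pairs with different numbers. A batch shared by some same-numbered libraries is therefore not excluded. With the replicate block 6501 and 6060 genes passed the side contrast, and 1421 and 897 were side-consistent. The block put no count beyond 1.5 times its value.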
